A study of Schmidtea mediterranea with 6 samples.

Results

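The genes agat-1 (SMESG000051964.1), agat-2 (SMESG000051953.1) and odc-1 (SMESG000062429.1) were followed in sorted stem cells of the planarian Schmidtea mediterranea, a flatworm that renews all its tissues from cycling cells called neoblasts. They were chosen by name and gene identifier, as enzyme genes used as markers of later epidermal progeny, and make up 3 of the 30917 gene models in each deposited table. Reads were counted in 3 gfp(RNAi) and 3 exoc3(RNAi) libraries of X1 cells, the irradiation-sensitive, mitotically active fraction obtained by flow cytometry. exoc3(RNAi) animals had received double-stranded RNA against Smed-exoc3, which codes for a subunit of the vesicle-tethering exocyst complex, in daily injections given in an early and a later round. As the injection control, gfp(RNAi) animals had received gfp double-stranded RNA, which matches nothing in the planarian genome. All animals were starved before and during the protocol. Each gene was targeted with a single double-stranded RNA, so effects of that RNA on other transcripts and effects of losing Smed-exoc3 cannot be told apart here. The question put to these libraries is whether markers of epidermal differentiation change in the X1 fraction when Smed-exoc3 is reduced.

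The proteins encoded by agat genes are glycine amidinotransferases. These enzymes move the amidino group of arginine onto glycine, which yields guanidinoacetate, the precursor of creatine, and ornithine. Ornithine decarboxylase, encoded by odc-1, turns ornithine into putrescine, the entry step of polyamine synthesis. A product of the first enzyme is thus a substrate of the second. In planarians, neoblasts that commit to the epidermis leave the cell cycle, express prog genes early, and later express agat genes and odc-1 while they migrate towards the body surface. The transcripts are therefore best known from post-mitotic cells, whereas the X1 gate is drawn around cycling cells.

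The primers listed for Smed-odc-1 in the study's RT-qPCR are shown as the sequence given for this marker. They were not aligned to the gene model SMESG000062429.1 or to the other ornithine decarboxylase genes. The list heads its reverse column as 3′ to 5′, but a reverse guide oligonucleotide under that heading reads from 5′ to 3′. The reverse primer is printed as listed and its direction was taken to be 5′ to 3′, which was not checked for the primer itself. The pair has lengths of 20 and 22 bases and GC contents of 45% and 40.9%. Positions in the genome and sequences of the 3 genes were not analysed here.
odc-1 forward primer: agtgaagtgcaatcagttgg
odc-1 reverse primer: gaatgttgaaagagccatagac

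The libraries held 28897363 to 37525894 assigned reads, with 18686 to 19115 genes detected. Smed-exoc3 itself (SMESG000022604.1) was at 70.2, 74.0 and 72.7 CPM (reads scaled to the size of the library, with TMM factors) in gfp(RNAi) replicates 1, 2 and 3 and at 31.9, 31.2 and 42.5 CPM in the exoc3(RNAi) replicates. The exoc3(RNAi) libraries thus kept 44.1%, 43.1% and 58.7% of the mean control level, with the third retaining the most. That library also differed more from its group than any other: the chi-square per degree of freedom over genes was 8.18 and 7.46 against the other exoc3(RNAi) libraries, and between 1.35 and 3.14 for the 4 remaining pairs within a group. No pair of libraries was as close as sampling noise alone would make it. All 8 neoblast markers examined were detected in every library. Their summed level lay between 10683 and 10886 CPM in gfp(RNAi) and between 8288 and 9075 CPM in exoc3(RNAi) cells.

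agat-1 was at 515, 529 and 528 CPM in the gfp(RNAi) libraries and at 255, 255 and 249 CPM in the exoc3(RNAi) libraries, in replicate order. The groups did not overlap, and the lowest control was far above the highest exoc3(RNAi) library. Its mean fell from 524 ± 8.19 CPM (SD, n = 3) to 48.3% of that level. The log2 fold change was -1.05 with an SE of 0.030 (edgeR quasi-likelihood test, adjusted p = 7.6e-11). For agat-2 the gfp(RNAi) libraries held 561, 554 and 540 CPM and the exoc3(RNAi) libraries 266, 264 and 259 CPM. This second amidinotransferase gene was again separated between groups, with differences inside each group that were small beside the gap. agat-2 fell to 47.7% of its control mean, which was 552 ± 10.3 CPM (SD, n = 3). The log2 fold change was -1.07 with an SE of 0.030 (edgeR adjusted p = 7.6e-11).

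odc-1 was counted from far fewer reads, 833 to 964 per gfp(RNAi) library and 419 to 462 per exoc3(RNAi) library. Its levels were 29.7, 26.9 and 29.0 CPM in gfp(RNAi) cells and 12.2, 14.3 and 12.6 CPM in exoc3(RNAi) cells. Every exoc3(RNAi) library was below every control, and replicate 2 was both the lowest control and the highest exoc3(RNAi) library. The decarboxylase gene fell to 45.6% of the control mean of 28.5 ± 1.43 CPM (SD, n = 3). This is a change of -1.14 on the log2 scale (SE 0.069, edgeR adjusted p = 3.8e-08).

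**Figure D1:**
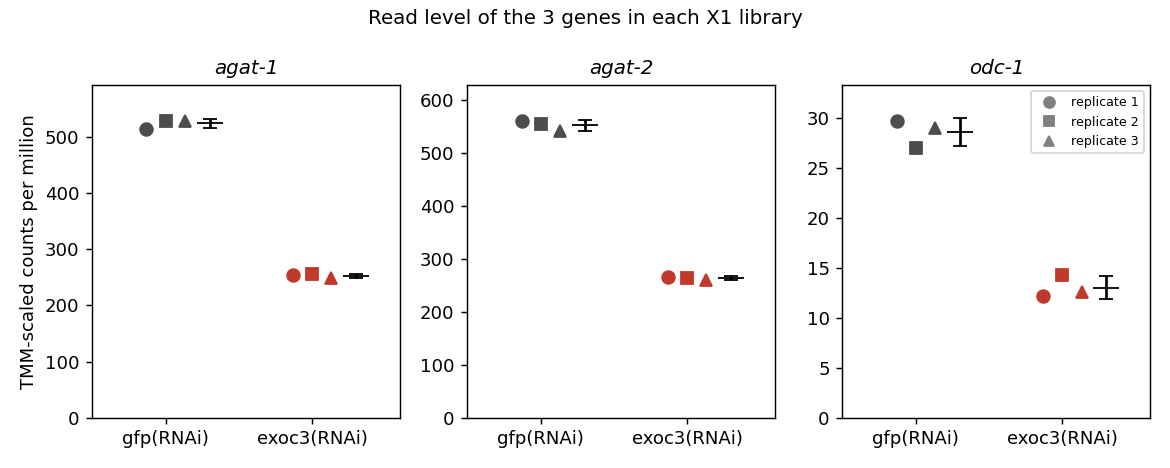
TMM-scaled CPM of agat-1, agat-2 and odc-1 (each panel with its own axis from 0) in the 3 gfp(RNAi) libraries (grey) and the 3 exoc3(RNAi) libraries (red), with symbols for the replicate number and bars for the mean and SD. In each panel all exoc3(RNAi) points lie below all gfp(RNAi) points, with means at 48.3%, 47.7% and 45.6% of the control mean.

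All 3 genes were thus called lower, and all 3 separated the groups, in a comparison in which changes were common. Of the 14700 genes tested, 53% were called in either direction, 27.1% were called lower and 30.7% had every exoc3(RNAi) library below every control. A call or a separation of the groups is therefore shared by a large part of all genes. A large change was less common: 1.35% of tested genes were called with a decrease of more than 1 on the log2 scale. The 3 genes were all beyond that limit, but agat-1 was at -0.998 when libraries were scaled by their size alone. They were chosen with earlier results of these data known, so their size beside that share is not independent evidence. The median log2 fold change of all tested genes was 0.02, and the median absolute change was 0.25. Larger decreases than that of agat-1 were fitted for 164 genes, than that of agat-2 for 152 and than that of odc-1 for 120. In the 1735 genes whose mean reached 100 CPM, 5 had a lower fold change than agat-1 and 3 a lower one than agat-2. Those below agat-1 included agat-2 itself and the epidermal markers prog-1-5, pmp-5 and pmp-8, from lists described later. Of these, pmp-5 and pmp-8 were also below agat-2.

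The exact permutation test on the means of 3 against 3 libraries gave p = 0.1 for each of the 3 genes, two-sided, which is the smallest value this design allows. The weight of the comparison therefore rests on the model fitted over all genes and on the gap between groups beside their spread. Because CPM values are relative to all reads of a library, fewer agat- and odc-1-expressing cells in the X1 fraction and less of these RNAs per cell cannot be told apart. The replicates were described as biological. The edgeR p-values set the difference between groups against the variation among these libraries, estimated with the help of all genes.

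**Figure D2:**
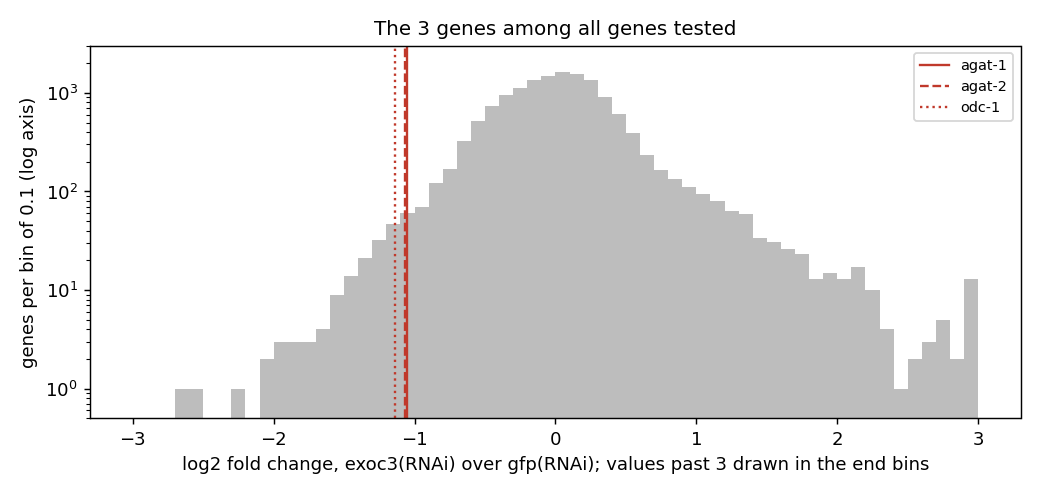
Number of genes (log axis) in bins of 0.1 by log2 fold change of exoc3(RNAi) over gfp(RNAi) for the 14700 genes tested, with lines at agat-1, agat-2 and odc-1. The 3 lines stand in the lower tail, at -1.05, -1.07 and -1.14, with 120 to 164 genes further out.

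The spread among replicate libraries was set beside the error of read counting. For agat-1 the coefficient of variation among libraries was 1.56% in gfp(RNAi) and 1.39% in exoc3(RNAi), where counting alone would give 0.772% and 1.08%. The values for agat-2 were 1.87% and 1.26%, beside counting errors of 0.752% and 1.06%. Both amidinotransferase genes were thus near the counting error in exoc3(RNAi) and above it in gfp(RNAi), and their spread was small beside the gap between groups. odc-1 varied by 5.01% in gfp(RNAi) and by 8.57% in exoc3(RNAi), with counting errors of 3.31% and 4.76%. The SE of its fold change, 0.069, compares with 0.030 for the agat genes, which were counted from 7496 to 17983 reads per library and are the more precisely measured.

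Whether the genes changed by different amounts was tested on the ratio of their reads within each library, for the 3 possible pairs. Such a ratio removes the scaling of the library but is not a ratio of transcript numbers, since reads were not divided by transcript length. agat-1 over agat-2 was 0.918, 0.955 and 0.978 in the gfp(RNAi) libraries and 0.960, 0.965 and 0.960 in the exoc3(RNAi) libraries. The exoc3(RNAi) ratios lay inside the range of the controls. On the log2 scale the difference between groups was 0.02 (SE 0.027; exact permutation p = 0.7). Leaving out gfp(RNAi) replicate 1, which has the lowest ratio, turned this small difference to -0.01.

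The ratio of agat-1 to odc-1 reads ranged from 17.3 to 19.6 in gfp(RNAi) and from 17.9 to 21.0 in exoc3(RNAi) libraries, a log2 difference of 0.09 (SE 0.085; exact permutation p = 0.4). The ratio of agat-2 to odc-1 reads ranged from 18.7 to 20.6 and from 18.5 to 21.8, a log2 difference of 0.07 (SE 0.082; exact permutation p = 0.6). All 3 pairs overlapped between groups, and each p adjusted over the 3 pairs was 0.7. The somewhat deeper decrease fitted for odc-1 was therefore within the error of these ratios. With 3 libraries per group a small difference between the genes would not have been detectable, and the result does not show that they changed equally.

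The remaining exoc3 transcript and the remaining marker transcripts did not rank the exoc3(RNAi) libraries in the same order. Replicate 3, with the most Smed-exoc3 (58.7% of control), held the least agat-1 (47.5%) and the least agat-2 (47.0%) of the 3 libraries, though the agat values differed by less than 2 percentage points. For odc-1 the levels in replicates 1, 2 and 3 were 42.6%, 50.0% and 44.1% of control. Without replicate 3 the log2 fold changes were -1.04 for agat-1, -1.06 for agat-2 and -1.12 for odc-1, while that of Smed-exoc3 itself was -1.20. With 3 libraries there are too few points to relate these measures.

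**Figure D3:**
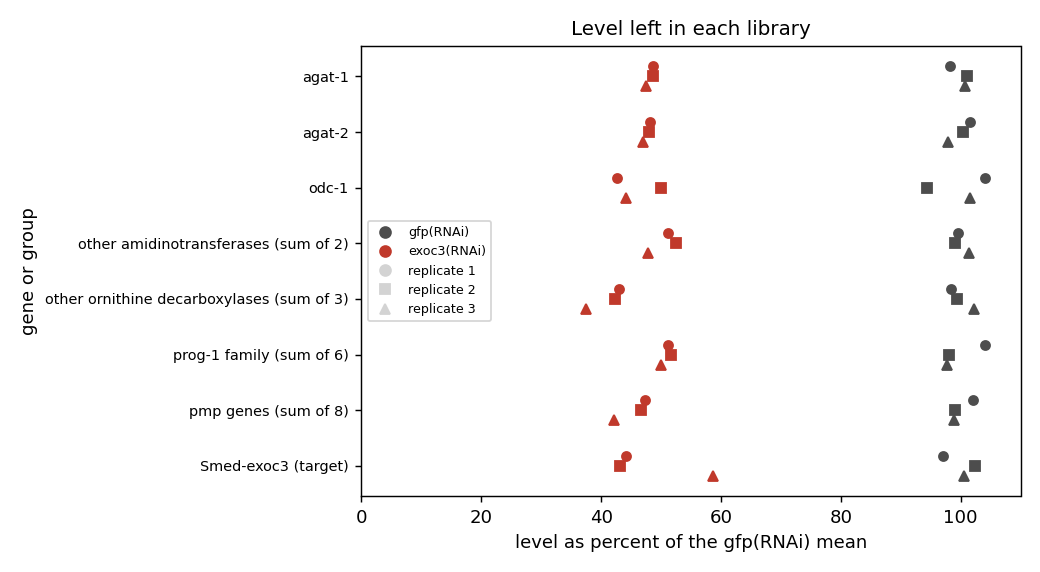
Level in each library as a percentage of the mean gfp(RNAi) level (horizontal axis) for the 3 genes, the summed CPM of their relatives and of epidermal marker groups, and Smed-exoc3; grey points are gfp(RNAi), red points exoc3(RNAi), and symbols mark the replicate number. exoc3(RNAi) replicate 3 holds the most Smed-exoc3, at 58.7%, but the least agat-1 and agat-2, at 47.5% and 47.0%.

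Other genes with the same enzyme descriptions were examined next. The descriptions available covered 1528 gene models, largely those with small p-values in these libraries, so the relatives named here are not the whole of either family and do not bear independently on its direction. They gave 4 glycine amidinotransferase genes and 4 ornithine decarboxylase genes, including the 3 genes above. All 5 relatives were called lower, beside the 27.1% of all genes, with log2 fold changes from -1.43 to -0.86 and a median of -1.22. In each of the 5 every exoc3(RNAi) library was below every control, which also held for 30.7% of all genes tested. Reads that aligned to several places had not been counted, so values of close copies within a family are uncertain.

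Among the amidinotransferases, SMESG000068402.1 was at 82.4, 81.0 and 84.5 CPM in gfp(RNAi) and at 39.5, 40.4 and 35.1 CPM in exoc3(RNAi) libraries. Its decrease to 46.4% of control, or by a log2 fold change of -1.11 with an SE of 0.050 (edgeR adjusted p = 3.4e-09), was of the size seen for agat-1 and agat-2. SMESG000043142.1 held 71.0, 71.4 and 71.5 CPM in gfp(RNAi) and 39.4, 40.4 and 38.4 CPM in exoc3(RNAi) libraries. This gene was at 55.3% of control (log2 fold change -0.86, SE 0.038, edgeR adjusted p = 3.3e-09). Accordingly its share of the reads of the 4 genes rose from 5.78-5.84% in the controls to 6.57-6.73% in exoc3(RNAi), without overlap. The shares of agat-1 (41.9-43.1% and 42.5-42.8%) and agat-2 (44.1-45.6% and 44.0-44.6%) overlapped between groups.

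The 3 decarboxylase relatives had lower fitted fold changes than odc-1, although these differences were not tested. SMESG000060777.1 was at 79.4, 82.6 and 83.1 CPM in gfp(RNAi) and at 35.8, 35.8 and 32.7 CPM in exoc3(RNAi) libraries, or 42.6% of control (log2 fold change -1.23, SE 0.045, edgeR adjusted p = 6.7e-10). SMESG000055750.1 went from 51.6, 50.5 and 53.3 CPM to 20.2, 20.7 and 16.9 CPM, or 37.2% of control (log2 fold change -1.43, SE 0.066, edgeR adjusted p = 3.9e-09). It showed the largest decrease of the 8 enzyme genes. SMESG000041045.1 was at 31.3, 30.9 and 32.3 CPM in the controls and at 15.0, 13.2 and 12.4 CPM in exoc3(RNAi), or 42.9% (log2 fold change -1.22, SE 0.069, edgeR adjusted p = 2.3e-08). In all 3 relatives exoc3(RNAi) replicate 3 was the lowest library, which was not so for odc-1.

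Within the 4 decarboxylase genes the share of reads from odc-1 was 14.1-15.5% in gfp(RNAi) and 14.6-17.0% in exoc3(RNAi), so the groups overlapped. The share of SMESG000055750.1 dropped from 26.4-27.0% to 22.6-24.7%. Of the 8 shares computed over both families, that gene and SMESG000043142.1 were the ones whose groups did not overlap. Shares within a family depend on each other, and these differences were not tested. By level, 30.7% of all tested genes had every exoc3(RNAi) library below every control, and 30.1% had every one above. The summed level of the amidinotransferase genes lay at 1225-1236 CPM in gfp(RNAi) and 582-600 CPM in exoc3(RNAi) libraries. That of the decarboxylase genes lay at 191-198 CPM and 74.5-84.0 CPM. The families as counted here were thus at 48.3% and 41.6% of control.

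Of 4 neighbouring genes of arginine, methyl group and polyamine metabolism, 2 were lower and 2 higher. Both gene models described as ASS1, argininosuccinate synthase of the arginine synthesis route, fell. SMESG000053052.1 was at 24.5, 25.5 and 24.9 CPM in gfp(RNAi) and 13.7, 14.5 and 13.4 CPM in exoc3(RNAi) libraries (log2 fold change -0.85, SE 0.057, edgeR adjusted p = 9.7e-08). SMESG000053053.1 was at 47.3, 51.0 and 46.9 CPM and at 30.1, 28.4 and 25.3 CPM (log2 fold change -0.79, SE 0.061, edgeR adjusted p = 2.8e-07). In both, every exoc3(RNAi) library was below every control, as for 30.7% of all genes tested. Calls of lower level were made for 27.1% of all genes.

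MAT2A (SMESG000027587.1), methionine adenosyltransferase, makes S-adenosylmethionine, which supplies the methyl group of creatine and, once decarboxylated, the aminopropyl groups of the longer polyamines. It rose from 293, 297 and 298 CPM to 423, 421 and 445 CPM (log2 fold change 0.54, SE 0.032, edgeR adjusted p = 3.3e-08). MTAP (SMESG000016252.1), the phosphorylase that salvages the methylthioadenosine left by polyamine synthesis, rose from 2.62, 2.81 and 2.58 CPM to 6.42, 7.56 and 11.7 CPM (log2 fold change 1.68, SE 0.20, edgeR adjusted p = 1.0e-05). Its increase was uneven: exoc3(RNAi) replicate 3 stood well above the other 2 libraries, and without it the log2 fold change was 1.37. Calls of higher level were made for 25.8% of all genes. The neighbouring genes named here therefore did not move in 1 direction. They were named from the same descriptions, largely of genes with small p-values in these libraries, so calls among them were likely. Other genes of these pathways were not examined.

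**Figure D4:**
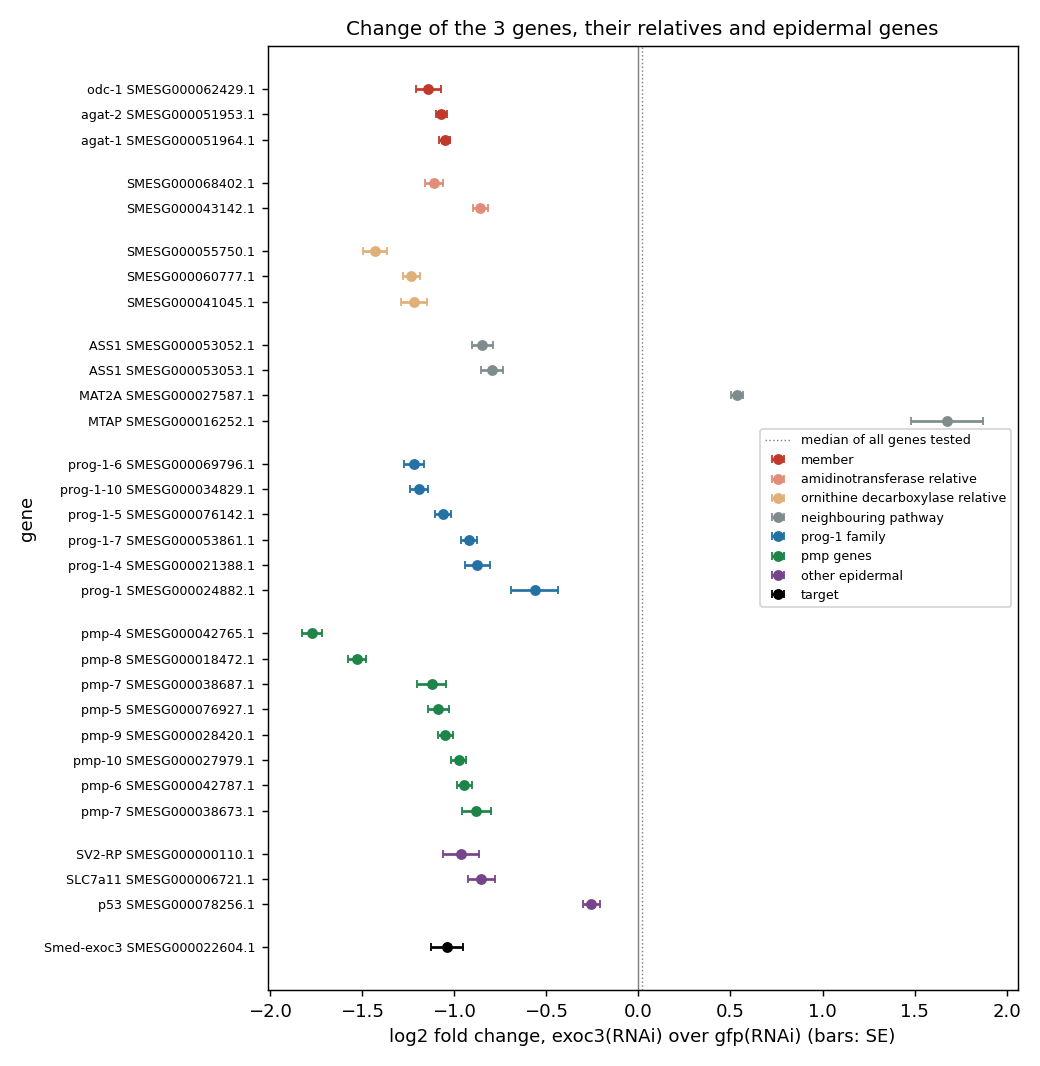
log2 fold change of exoc3(RNAi) over gfp(RNAi) with its SE (horizontal axis) for agat-1, agat-2 and odc-1, the 5 genes with the same enzyme descriptions, 4 neighbouring metabolic genes, the epidermal marker genes and Smed-exoc3, one gene per line; lines mark 0 and the median of all genes tested. The 8 enzyme genes lie between -1.43 and -0.86, and MAT2A and MTAP lie above 0.

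The 3 genes stand among 20 epidermal genes that the study had picked out, in part because they changed in these libraries, so the common direction of that list is not independent evidence. All 20 were called lower, beside 27.1% of all genes tested. The 6 early markers of the prog-1 family had a median log2 fold change of -0.99, with values from -1.22 for prog-1-6 (SMESG000069796.1) to -0.56 for prog-1 (SMESG000024882.1). The 8 pmp genes, further markers of post-mitotic progeny, had a median of -1.07 and ranged from -1.77 for pmp-4 (SMESG000042765.1) to -0.88 for a pmp-7 model (SMESG000038673.1). The later markers agat-1, agat-2 and odc-1, with a median of -1.07, thus fell within the span of both groups. Of the other 3 listed genes, SV2-RP (SMESG000000110.1) had the largest change, -0.96, and p53 (SMESG000078256.1), a transcription factor gene, the smallest, -0.26.

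prog-1 itself fell less evenly across libraries. It was at 58.2, 52.9 and 52.3 CPM in gfp(RNAi) and at 30.7, 31.4 and 48.3 CPM in exoc3(RNAi) libraries, replicate 3 being close to the controls. Without that library its log2 fold change was -0.81, and with robust dispersion estimation prog-1 was no longer called (edgeR adjusted p = 0.093). Under the other alternatives the adjusted p lay between 1.1e-17 (edgeR) and 0.031 (DESeq2 Wald test). The summed level of the 3 later markers, nearly all of it from agat-1 and agat-2, was 521-534 CPM in the exoc3(RNAi) libraries and 1098-1110 CPM in the controls. The summed prog-1 family was at 306-317 CPM and 599-638 CPM, and the summed pmp genes at 487-548 CPM and 1143-1179 CPM. Relative to control these sums were 47.9%, 50.9% and 45.4%.

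Markers of other cells moved as well, in a comparison that called 27.1% of all genes lower and 25.8% higher. The 4 ciliated cell markers were all lower, with sums of 96.2-99.1 CPM in gfp(RNAi) and 60.7-67.7 CPM in exoc3(RNAi) libraries, or 66.1% of control. Of 5 muscle markers 4 were lower and 1 higher, with sums of 372-377 CPM and 301-309 CPM. Of 9 neuron markers 7 were higher and 2 lower, with sums of 2059-2202 CPM and 2533-2650 CPM. Of the 8 neoblast markers 6 were lower and 2 higher. Their sum was at 81.3% of control, where that of agat-1, agat-2 and odc-1 was at 47.9%. Such sums weigh abundant genes most, the neoblast marker smedwi-2 alone being at 4835 CPM in gfp(RNAi) cells. By gene, the median log2 fold change was -0.22 for the neoblast markers, beside -1.07 for the 3 genes. The ciliated cell markers had a median of -0.58 and ranged from -1.22 (DNAH5), below odc-1 at -1.14, to -0.46. Each of the cell type markers had reads. The part of such shifts in cell make-up in the decrease of the 3 genes was not tested.

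The genes whose values moved most like each marker were found by the root mean square difference of centred log2 CPM over the 6 libraries, among 7700 other genes whose mean reached 10 CPM. The nearest gene to agat-1 was agat-2, with a difference of 0.03, and the reverse also held. Next to agat-1 came prog-1-5 (SMESG000076142.1) with 0.04 and a myosin VI gene (SMESG000047361.1) with 0.05. Next to agat-2 came pmp-9 (SMESG000028420.1) with 0.04 and prog-1-5 with 0.05. By this measure, though not by correlation, each amidinotransferase gene was the nearest to the other.

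odc-1 had no equally near gene. Its nearest were a gene described as a neuronal guanine nucleotide exchange factor (SMESG000003812.1) with 0.05, prog-1-6 with 0.07 and SMESG000075938.1, for which no description was available, with 0.08. odc-1 stood at rank 42 from agat-1 and at rank 41 from agat-2, and seen from odc-1 the agat genes stood at ranks 16 and 13. These distances hold the counting error of each gene, which is larger for odc-1. All 6 points come from the same libraries and fall into 2 groups, and 550 genes reached a correlation above 0.99 with agat-1, 512 with agat-2 and 184 with odc-1. Ranking by correlation gave other genes in each case, with 0 of the 3 nearest genes shared.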

How the data were processed

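Double-stranded RNA against gfp or Smed-exoc3 was injected, and X1 cells were sorted after staining with Hoechst and Calcein-AM. The authors made stranded mRNA libraries, read single ends, aligned them with STAR (version 2.7.2b) to the dd_Smes_g4 genome and counted uniquely aligned reads on the reverse strand with featureCounts (version 1.6.5). Reads with several alignments or over several genes were left out. The deposited values are raw counts per gene, with no normalisation and no rows other than genes.

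Counts were tested with edgeR 4.0.16 in R 4.3.3 by the quasi-likelihood F test, two-sided, after filterByExpr (minimum count 10, 14700 genes kept) and TMM scaling, with Benjamini-Hochberg adjustment over all genes tested and a threshold of 0.05. SE was the log2 fold change divided by the root of F. Levels are TMM-scaled CPM. Exact permutation tests of single genes used log2 CPM with a pseudocount of 0.5. Those of gene pairs used the log2 ratio of raw reads in each library, with no pseudocount. The fit was tested on simulated data with 200 changed genes, far fewer than the 7784 called here. That simulation does not show how the fit behaves when changes are so common. Alternatives were library size alone, DESeq2 1.42.0 and its size factors, other filters, robust dispersion, each library left out and a replicate block. The genes and lists were chosen with earlier results of these data known. Named genes were the 3 enzymes, their described relatives and neighbours, the target, the extremes of each epidermal group and the 3 nearest patterns. Descriptions came from a shortened supplementary table. Replicate numbers were not used to pair the libraries in the reported fit. Cell make-up and transcript length were not analysed here.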

Additional observations from a re-analysis of the deposited data

How the results depend on the processing

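agat-1, agat-2 and odc-1 kept their direction and their call under each of 13 alternatives, with log2 fold changes from -1.06 to -0.998, from -1.08 to -1.02 and from -1.21 to -1.09; leaving out each library in turn gave -1.06 to -1.04, -1.08 to -1.06 and -1.21 to -1.09. The highest adjusted p over these alternatives was 3.4e-08, 3.3e-08 and 4.7e-06. Over 27 further gene values, 348 of 349 alternatives kept the call, and prog-1 lost it with robust dispersion; MTAP and SV2-RP were not tested under the filter of at least 10 CPM. Of the 26 cell type markers, none changed direction; 25 were called without exoc3(RNAi) replicate 1, 25 were tested and called under the filter of at least 10 CPM, and 26 were called otherwise. All 8 enzyme genes stayed called lower throughout. The count of all genes called lay between 5612 and 8115, beside 7784 in the reported fit. Scaling by library size alone moved the median of all genes by 0.05 on the log2 scale and the share of calls that were lower from 51.2% to 42.7%.

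The difference in change between agat-1 and agat-2 ranged from -0.0072 to 0.038 as each library was left out and changed sign without gfp(RNAi) replicate 1. That between agat-1 and odc-1 ranged from 0.03 to 0.15, and that between agat-2 and odc-1 from 0.01 to 0.13.

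The groups share replicate numbers, but the deviations of same-numbered libraries correlated at only -0.013, 0.018 and -0.022. No shared replicate effect was thus visible, which does not show whether same-numbered libraries were collected together. With the replicate number as a block the log2 fold changes were -1.05 for agat-1, -1.07 for agat-2 and -1.14 for odc-1, and 7642 genes were called. The differences between the 3 genes cannot change under this block, since both groups hold the same replicate numbers. No call of the 3 genes changed.

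odc-1 was counted from the fewest reads of the 3 enzymes and has the largest SE among them. Cell numbers, transcript lengths and close copies limit what these values say of cells, molecules and family members.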
